A study of Homo sapiens with 48 samples.

Results

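The genes described here are 33 enzymes and carriers of gluconeogenesis, the urea cycle and amino acid catabolism, taken as a set from their known roles in the liver. The set was chosen with earlier results of these data known. A gene counted as measured where the array's annotation gave its symbol, or an older alias, to a probe. That held for 30 of the 33 genes, with 48 of 48795 probes and among 18849 named genes in all. GLS2, GPT2 and SDS had no named probe here and were not analysed. Each gene is described by its probe with the highest mean over all arrays.

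The RNA of Huh7, a human hepatoma line, and of THP1, a human monocytic leukaemia line, was read on Illumina bead arrays. Cells received INTG, an siRNA aimed at an intergenic transcript that lies between the genes C5 and TRAF1, or 1 of 2 negative control siRNAs, NC1 and NC2. All 6 groups were unmodified cell lines carried in RPMI with serum and transfected with a Lipofectamine reagent. Each well held 300000 cells and 50 pmol siRNA, and RNA was taken 2 days later. There was no untransfected group, so every level below is that of transfected cells. Each group had 4 experiments from different culture passages with 2 wells each, 8 arrays per group and 48 in all. The labels call experiments 1 and 2 discovery and experiments 3 and 4 validation. No probe used here is named for the intergenic transcript, so its knockdown was not checked.

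The liver makes glucose from lactate, glycerol and amino acids. Pyruvate carboxylase, PEP carboxykinase, fructose bisphosphatase and glucose 6-phosphatase carry out the steps that bypass glycolysis. Amino acid breakdown feeds carbon into this route and releases ammonia, which the urea cycle fixes in mitochondria through carbamoyl phosphate and disposes of as urea. Most of these enzymes are strongly expressed in hepatocytes, and several are induced by glucocorticoid and glucagon in fasting. Hepatoma lines are known to have lost part of this programme. The question of the comparison was what loss of the intergenic transcript does to gene expression in a hepatocyte-like and a monocyte-like line.

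The siRNA target and the promoters of 4 genes are shown for reference, and no result below was tested against these sequences. The 4 genes were picked for their values: TDO2 had the most negative INTG difference of the set in Huh7, CPS1 and AGXT were lower with INTG and varied between passages, and ARG1 varied most between passages. The siRNA target lies between C5 and TRAF1, both on chromosome 9, and is 21 bases long.
INTG siRNA target: aactacgtgaagaggcctctg
The promoters are those of RefSeq on GRCh38.p14, from 250 bases before to 50 bases after each gene's start, all on the + strand. Of the 33 genes, 28 matched that table by symbol. Capitals mark matches to 5 short motifs on either strand. These were TATAAA, known as the TATA box, CCAAT as it stands, GTTAAT, a core bound by HNF1, CAAAGT, a core bound by HNF4, and TTNNGCAA, a core bound by C/EBP factors. No matches overlapped in these 4 promoters.
TDO2 promoter, chr4:155903446-155903745: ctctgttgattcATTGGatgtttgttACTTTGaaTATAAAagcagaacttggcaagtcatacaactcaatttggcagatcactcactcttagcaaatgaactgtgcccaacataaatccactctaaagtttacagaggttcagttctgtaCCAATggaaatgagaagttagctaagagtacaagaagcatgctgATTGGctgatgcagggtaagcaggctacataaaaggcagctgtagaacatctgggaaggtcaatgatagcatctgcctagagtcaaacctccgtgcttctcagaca
CPS1 promoter, chr2:210593105-210593404: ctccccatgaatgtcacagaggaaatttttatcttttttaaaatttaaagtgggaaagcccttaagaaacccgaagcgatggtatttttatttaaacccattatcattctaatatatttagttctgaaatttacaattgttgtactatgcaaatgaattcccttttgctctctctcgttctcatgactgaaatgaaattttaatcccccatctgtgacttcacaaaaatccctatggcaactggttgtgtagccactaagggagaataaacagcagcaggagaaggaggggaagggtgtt
ARG1 promoter, chr6:131572976-131573275: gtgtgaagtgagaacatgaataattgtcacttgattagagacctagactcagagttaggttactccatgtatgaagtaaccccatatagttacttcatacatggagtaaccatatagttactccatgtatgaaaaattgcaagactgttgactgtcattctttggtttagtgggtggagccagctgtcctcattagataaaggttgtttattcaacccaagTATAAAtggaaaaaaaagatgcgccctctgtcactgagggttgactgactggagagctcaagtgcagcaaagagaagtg
AGXT promoter, chr2:240868574-240868873: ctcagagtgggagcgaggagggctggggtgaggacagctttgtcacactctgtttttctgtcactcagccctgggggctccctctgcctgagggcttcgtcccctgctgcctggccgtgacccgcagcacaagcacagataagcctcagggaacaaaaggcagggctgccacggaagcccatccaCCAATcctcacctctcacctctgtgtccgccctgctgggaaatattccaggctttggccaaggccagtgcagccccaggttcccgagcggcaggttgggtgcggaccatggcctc
CCAAT occurred in 12 of the 28 promoters of the set and in 35.7% of 27305 RefSeq promoters of 300 bases. Of the 7 genes past the threshold with INTG in Huh7, 6 matched the table, and 5 of these 6 windows held it, those of TDO2 and AGXT among them. In TDO2 it occurred at 3 places, whose first bases lay at -238, -100 and -56 from the gene's start. TATAAA was found in 6 of the 28 promoters against 12% of all, and in ARG1 it began at -29. CAAAGT was found in 4 of the 28 promoters, against 12% of all. GTTAAT and TTNNGCAA were found in 2 promoters each, against 6.89% and 10.6% of all. The CPS1 window held none of the 5 motifs.

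The 24 arrays of Huh7 had mean signals of 240.6 to 396.8 and 11510 to 13977 detected probes, and those of THP1 122.2 to 478.2 and 8587 to 13849. The lowest correlation between the 2 wells of an experiment was 0.986 in Huh7 and 0.921 in THP1. The hepatocyte markers ALB, APOA1, TTR, TF, SERPINA1 and AFP were detected on all 24 Huh7 arrays and on 0 to 2 THP1 arrays. The myeloid markers SPI1, FCER1G and CSF1R were detected on all 24 THP1 arrays, PTPRC on 12 of them, and all 4 on 0 Huh7 arrays. CD14 and LYZ, the other 2 myeloid markers with a probe, were detected in both lines, with 24 Huh7 arrays each against 16 and 22 THP1 arrays. Mean signal differed between siRNAs. The INTG arrays had 1.02, 0.798, 0.738 and 0.819 of the controls' mean signal in Huh7 experiments 1 to 4, and 0.983, 0.986, 1.06 and 0.462 in THP1 experiments 1 to 4. Each slide held 1 phase of 1 line with all 3 siRNAs, and the position on the slide followed the siRNA. The arrays' number limits the precision, and in cultures fewer cells of a type and less RNA per cell cannot be told apart.

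Huh7 expressed most of the set and THP1 fewer of its genes. A probe was called detected on an array at a detection p-value under 0.01, and measured in a line when detected on at least 8 of its 24 arrays. Of the 30 genes, 24 were measured in Huh7 (12 of them on all 24 arrays) and 11 in THP1 (7 of them on all 24 arrays). All 11 genes measured in THP1 were also measured in Huh7. PCK1, the cytosolic PEP carboxykinase, and G6PC, the catalytic subunit of glucose 6-phosphatase, were detected on 0 of 24 arrays in either line, with both probes of each. The same was true of NAGS, which makes the activator of CPS1, of OTC, which makes citrulline in mitochondria, and of GNMT, a glycine methyltransferase of the liver. HPD, the dioxygenase after TAT in tyrosine breakdown, was detected on 0 Huh7 arrays and 1 THP1 array. A probe not detected says only that its signal was not above the array's negative controls.

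**Figure D1:**
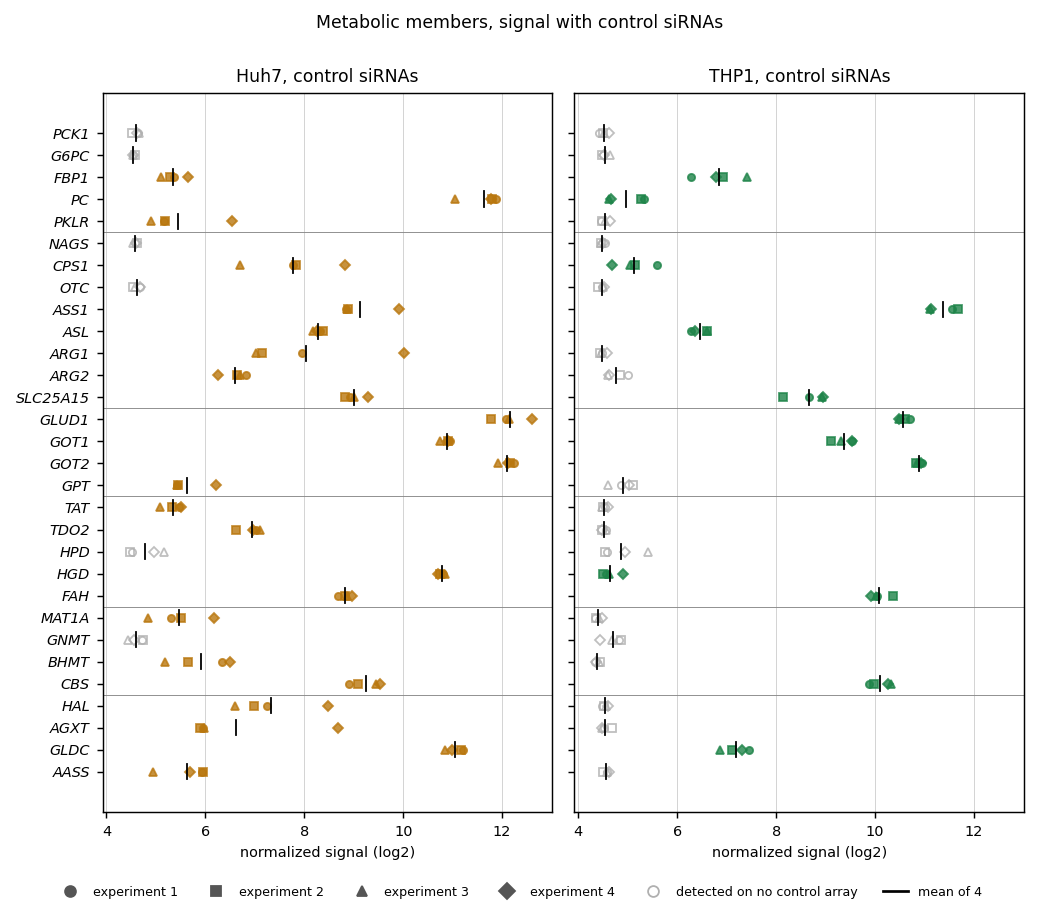
Normalized signal (log2) of the 30 genes with a probe in cells with control siRNAs, Huh7 left and THP1 right. Each symbol is the mean of NC1 and NC2 in 1 experiment, black bars are means of 4 experiments, hollow grey symbols mark genes whose brightest probe was detected on no control array, and horizontal lines separate the groups of roles. Levels of different probes cannot be ranked against each other. PCK1, G6PC, NAGS, OTC, HPD and GNMT are hollow in both lines, and the 4 symbols of ARG1, AGXT, CPS1 and HAL lie far apart in Huh7.

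With control siRNAs, 6 of the 11 genes measured in both lines were higher in Huh7, 4 were lower and 1 was not past the threshold (limma, 10 of 11, against 55.9% of all probes measured in both lines; each line was on its own slides). Of the 11, FBP1 in Huh7 and CPS1 in THP1 counted as measured only with their INTG arrays. GLDC, the decarboxylase of the glycine cleavage system, averaged 11.05 ± 0.17 in Huh7 and 7.19 ± 0.25 in THP1 (log2, SD, n = 4 each), a difference of 3.87. CPS1, the rate-limiting first enzyme of the urea cycle, averaged 7.78 ± 0.87 in Huh7 and 5.12 ± 0.37 in THP1, a difference of 2.67, with detection on 6 of 16 THP1 control arrays. ASL, which splits argininosuccinate, was 1.83 higher in Huh7. The aminotransferases GOT1 and GOT2 and glutamate dehydrogenase (GLUD1, whose probe was not checked against its near-identical copy GLUD2) were 1.22 to 1.58 higher.

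In the other direction, ASS1, which joins citrulline and aspartate, averaged 9.12 ± 0.53 in Huh7 and 11.37 ± 0.29 in THP1, a difference of -2.24. Another ASS1 probe gave -2.47, and the remaining one, detected on 13 Huh7 and 21 THP1 arrays, gave -0.44 with limma's adjusted p = 0.154. FBP1, the fructose bisphosphatase of gluconeogenesis, averaged 5.35 ± 0.22 in Huh7 and 6.85 ± 0.46 in THP1, a difference of -1.50, with detection on 6 of 16 Huh7 control arrays. FAH, the last enzyme of tyrosine breakdown, and CBS, the first of transsulfuration, were also lower in Huh7, by -1.25 and -0.87. The ornithine carrier SLC25A15 averaged 9.01 ± 0.21 in Huh7 and 8.67 ± 0.37 in THP1, which did not pass the threshold (limma, adjusted p = 0.164). Its second probe was 0.46 higher in Huh7 and passed (limma, adjusted p = 0.0132).

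A further 13 genes were measured in Huh7 only. Since they entered through their detection in Huh7, that they were higher there is a description and no count of tests is read from it. Pyruvate carboxylase (PC) averaged 11.63 ± 0.38 in Huh7 and 4.97 ± 0.38 in THP1, where it was detected on 3 of 16 control arrays. HGD, homogentisate dioxygenase, averaged 10.78 ± 0.06 in Huh7 and 4.64 ± 0.17 in THP1, where it was detected on 1 of 16. For genes with no probe detected on any THP1 array the dimmest detected probes set a lower bound on the fold. It was at least 5.2-fold for ARG1, the liver arginase. TDO2, which opens the indole ring of tryptophan, was at least 2.42-fold higher in Huh7, AGXT, a peroxisomal aminotransferase, at least 1.96-fold, ARG2, the mitochondrial arginase, at least 1.93-fold, and BHMT, a homocysteine methyltransferase, at least 1.2-fold. PKLR, TAT, MAT1A and AASS were too close to background in Huh7 to give a bound above 1. So was GPT, which was detected on 1 THP1 array, with INTG, and on 0 THP1 control arrays. HAL, histidine ammonia-lyase, averaged 7.32 ± 0.81 in Huh7 and 4.54 ± 0.05 in THP1 with its brightest probe, detected on 0 THP1 arrays. Its second probe was detected on 3 THP1 arrays and had 7.85 with INTG in THP1 experiment 4, against 4.91 with NC1 and 5.61 with NC2, on the dimmest arrays of that line.

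Within Huh7, 8 of the 24 measured genes differed by more than 1 log2 unit between passages in the control wells (33.3%, against 16.6% of 13878 probes). The median range over the 4 experiments was 0.70 for the 24 genes and 0.52 for all probes. ARG1 had 7.95, 7.14, 7.03 and 10.03 in experiments 1 to 4, so that experiment 4 was 7.98-fold above experiment 3. AGXT had 5.96, 5.89, 5.97 and 8.69. Both genes were thus set apart by experiment 4, the other 3 experiments lying from 7.03 to 7.95 for ARG1 and from 5.89 to 5.97 for AGXT. CPS1 had 7.78, 7.84, 6.69 and 8.81, with experiment 3 low and experiment 4 high. HAL had 7.24, 6.98, 6.60 and 8.48, again lowest in experiment 3 and highest in experiment 4.

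The other 4 genes of this kind were PKLR, the liver pyruvate kinase, MAT1A, the methionine adenosyltransferase of adult liver, BHMT and ASS1. All 8 were highest in experiment 4, and 6 of them lowest in experiment 3. The INTG wells, which were not used for the ranges, were highest in experiment 4 and lowest in experiment 3 for all 8. They shared passage and slide with the control wells, so this is no independent support. INTG arrays also counted towards which probes were measured, and PKLR, detected on 6 control and 2 INTG arrays, was measured only with them. The arrays of experiment 4 counted as well. PKLR, MAT1A and GPT were dim, detected on 8, 11 and 13 of 24 Huh7 arrays. That such genes were highest in experiment 4 is a description, and their part in the counts is not independent of the filter. Of their other probes measured in Huh7, the second of HAL and the second of ASS1 were highest in experiment 4 with each siRNA. The remaining ASS1 probe was highest there with INTG and NC1, but with NC2 it had 5.25, 5.62, 5.60 and 5.49 in experiments 1 to 4. Of all probes, 24.4% were highest in experiment 4, against 15 of the 24 genes. The hepatocyte markers ranged from 0.13 for ALB to 1.25 for APOA1, with 1 of 6 over 1 log2 unit. HGD, with a range of 0.13, and GOT1, with 0.20, varied least. Experiments 3 and 4 shared a slide. In THP1, 1 of 11 genes, FBP1, ranged over 1 log2 unit (against 16.1% of probes), with 6.28, 6.93, 7.41 and 6.78 in experiments 1 to 4.

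**Figure D2:**
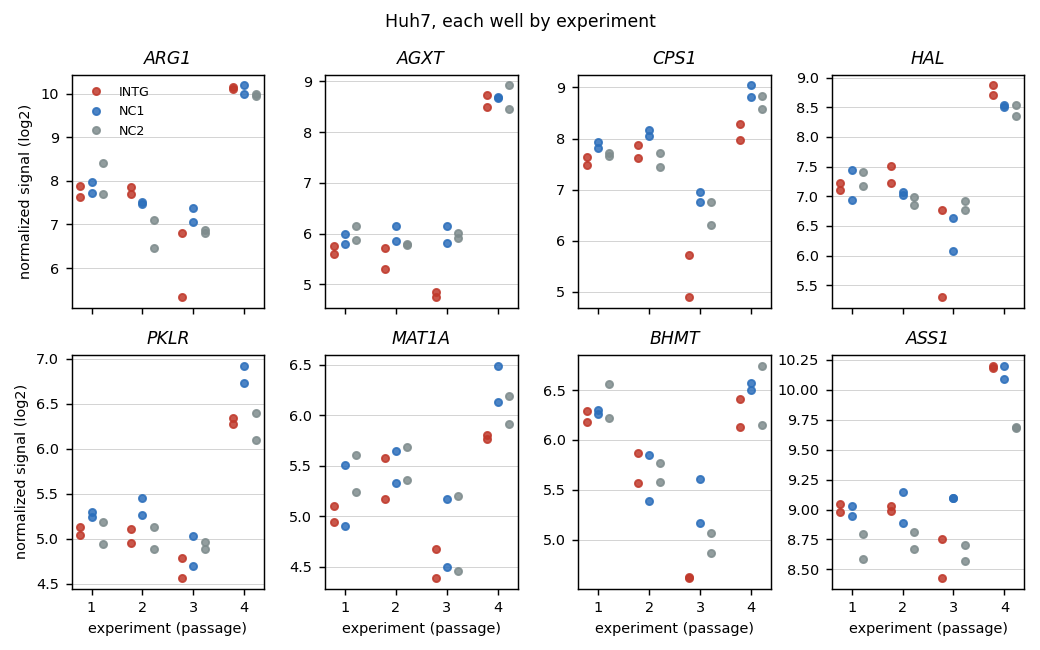
Normalized signal (log2) of each Huh7 well by experiment for the 8 genes whose control means lay more than 1 log2 unit apart, with INTG in red, NC1 in blue and NC2 in grey. Each point is 1 array, and the vertical axes differ between panels. The mean of experiment 4 is highest in all 8 panels, although the BHMT wells of experiments 1 and 4 overlap, and in ARG1 and AGXT experiment 4 stands far above the other 3 experiments with every siRNA.

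With INTG, 7 of the 24 genes measured in Huh7 passed an adjusted p of 0.05: 2 rose and 5 fell (limma with the experiment as block; 29.2%, against 22.3% of 13878 probes, of which 10.3% rose and 12% fell). Those that rose were TAT and ARG2, and those that fell were TDO2, CPS1, AGXT, MAT1A and GLDC. TAT, like FBP1 and PKLR, which did not pass, counted as measured in Huh7 only through its INTG arrays. The part of TAT in these counts is therefore a description. Differences are INTG less the control mean, that of NC1 and NC2, on the log2 scale. Their median was -0.09 over the 24 genes and 0.01 over all probes, and the median size was 0.11 and 0.13. Of the 24 differences 7 were positive and 17 negative. All 7 called genes kept 1 sign in all 4 experiments, as did 4 of the 17 others. A call made from the same differences favours 1 sign, and the share over all probes was not counted.

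Array brightness went partly with the siRNA, so the effects of the 2 cannot be fully told apart. A covariate also takes up a residual degree of freedom, and why calls were lost with it was not tested. INTG arrays were dimmer than controls in experiments 2 to 4, and with brightness as a covariate none of the 24 genes passed (limma, adjusted p = 0.131 to 0.479 for the 7, 3 genes at an unadjusted p under 0.05, 3.83% of all probes called). The fitted differences with the covariate kept their signs, at -0.92 for TDO2, 0.36 for TAT, -0.38 for CPS1, -0.30 for AGXT, 0.25 for ARG2, -0.24 for GLDC and -0.19 for MAT1A.

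**Figure D3:**
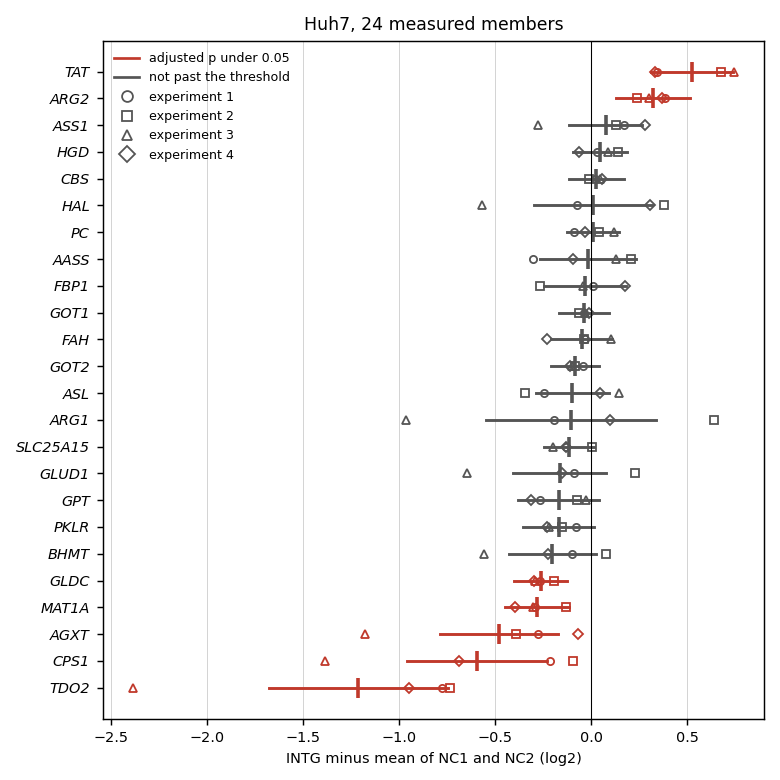
Difference of INTG from the mean of both controls (log2) for the 24 genes measured in Huh7. Vertical ticks are the fitted differences, horizontal lines their 95% confidence intervals, and symbols the 4 experiments, with genes past an adjusted p of 0.05 in red. TDO2 lies furthest to the left at -1.21 and TAT furthest to the right at 0.53, and the symbols of ARG1 and HAL fall on both sides of 0.

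Among the gluconeogenic and pyruvate enzymes, 0 of 3 measured genes passed (limma; 0 at an unadjusted p under 0.05, 22.3% of all probes called). PC differed by 0.01 (95% confidence interval -0.12 to 0.14), FBP1 by -0.03 (-0.24 to 0.18) and PKLR by -0.17 (-0.35 to 0.01). Against single controls PKLR passed with NC1 (-0.30, limma, adjusted p = 0.0495) and not with NC2 (-0.03, limma, adjusted p = 0.843), at a level that 8 of 24 arrays detected. PCK1, the usual marker of hormonal control of gluconeogenesis, had 4.48, 4.55, 4.92 and 4.76 with INTG, 4.55, 4.6, 4.74 and 4.54 with NC1, and 4.71, 4.42, 4.59 and 4.68 with NC2. None of these values was above background, so they carry no difference.

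In the urea cycle group, which includes ARG2, 2 of 6 measured genes passed (33.3%, against 22.3% of all probes), CPS1 lower and ARG2 higher. CPS1 had 7.56, 7.75, 5.30 and 8.13 with INTG in experiments 1 to 4, against 7.87, 8.11, 6.85 and 8.93 with NC1 and 7.68, 7.57, 6.53 and 8.70 with NC2. It was detected on 6 of 8 INTG arrays, against 8 of 8 for each control, and neither INTG well of experiment 3 detected it. INTG was below both controls in 3 of 4 experiments, and the groups overlapped because passages differed more than siRNAs. The difference was -0.59 ± 0.17 (SE, limma, adjusted p = 0.0248), past the threshold against NC1 (-0.75, adjusted p = 0.0199) and not against NC2 (-0.44, adjusted p = 0.147). Most of it came from experiment 3, at -1.39. Without experiment 3 the difference was -0.33 and not past the threshold (limma, adjusted p = 0.0743), and without experiment 4 it was -0.56 (limma, adjusted p = 0.104).

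ARG2, which hydrolyses arginine in mitochondria outside the hepatic urea cycle, moved the other way. It had 7.21, 6.87, 7.0 and 6.63 with INTG, 6.74, 6.82, 6.69 and 6.10 with NC1, and 6.90, 6.45, 6.71 and 6.42 with NC2. INTG was above both controls in all 4 experiments (22.7% of probes had INTG on 1 side in all 4), although the ranges overlapped. The rise was 0.32 ± 0.09 (SE, limma, adjusted p = 0.0224), and it was past the threshold against NC1 (adjusted p = 0.0396) and not against NC2 (adjusted p = 0.0627). Without experiment 1, 3 or 4 its adjusted p was 0.104, 0.0624 and 0.0685 (limma).

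ARG1, the arginase of the hepatic cycle, had 7.76, 7.77, 6.07 and 10.13 with INTG, 7.85, 7.49, 7.22 and 10.09 with NC1, and 8.05, 6.78, 6.84 and 9.96 with NC2. The 4 differences were -0.19, 0.64, -0.96 and 0.10, so that experiments 2 and 3 pointed opposite ways. Their mean of -0.10 had an interval of -0.55 to 0.34 and did not pass (limma, adjusted p = 0.745). ASS1 differed by 0.08 and ASL by -0.10, neither past the threshold. SLC25A15 differed by -0.11 with its brightest probe (limma, adjusted p = 0.198), but its second probe fell by 0.33 (limma, adjusted p = 0.0192), so its call depends on the probe.

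Glutamate dehydrogenase and the aminotransferases gave no call, with 0 of 4 measured genes past the threshold (limma; 0 at an unadjusted p under 0.05, 22.3% of all probes called). All 4 differences were below 0, from -0.17 for GPT and -0.16 for GLUD1 to -0.08 for GOT2 and -0.04 for GOT1. GOT1 and GOT2, which exchange amino groups between glutamate and aspartate, were the tightest, with intervals of -0.17 to 0.09 and -0.21 to 0.04.

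Tyrosine and tryptophan breakdown held the most negative and the most positive difference of the set, and 2 of 4 measured genes passed (50%, against 22.3% of all probes). TAT was measured only through its INTG arrays. Its place in this count, and among the ranges without overlap below, is therefore a description. TDO2 had 6.25, 5.89, 4.72 and 6.02 with INTG, against 7.30, 6.80, 7.30 and 7.13 with NC1 and 6.76, 6.45, 6.91 and 6.81 with NC2. Every INTG value was below every control value. Among the 24 genes TDO2 and TAT had ranges without overlap, TDO2 below and TAT above the controls, as did 3.88% of all probes in either direction. The fall was -1.21 ± 0.21 (SE, limma, adjusted p = 0.00251), with 6 of 8 INTG arrays detecting it against 8 of 8 for each control. It was past the threshold against NC1 (-1.41, adjusted p = 0.00293) and against NC2 (-1.01, adjusted p = 0.0183). Experiment 3, in which neither INTG well detected the gene, gave -2.39 and the others -0.73 to -0.95, and without that experiment, whose INTG arrays had 0.738 of the controls' brightness, the fall was -0.82. The second TDO2 probe was detected on no array.

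TAT, the glucocorticoid-induced aminotransferase that starts tyrosine breakdown, had 5.81, 5.99, 5.82 and 5.85 with INTG. The controls had 5.41, 5.26, 5.21 and 5.34 with NC1 and 5.53, 5.37, 4.95 and 5.70 with NC2. All INTG values lay above all control values, with an SD of 0.08 for INTG, 0.09 for NC1 and 0.32 for NC2. The rise was 0.53 ± 0.10 (SE, limma, adjusted p = 0.00334), and it passed against NC1 (0.57, adjusted p = 0.00599) and NC2 (0.48, adjusted p = 0.0151). The probe was dim: it was detected on 7 of 8 INTG arrays, 1 of 8 NC1 arrays and 4 of 8 NC2 arrays. With 5 control arrays detecting it, it reached the limit of 8 arrays only through INTG, where it was higher. Its rise is therefore given as a description, and its call is not independent of how it was chosen. TDO2 and TAT were the 2 genes of 24 past the threshold against each control singly (8.33%, against 11.2% of probes). HGD differed by 0.05 (-0.09 to 0.19) and FAH by -0.05 (-0.21 to 0.11), so the later enzymes of the tyrosine route gave no call.

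In methionine metabolism 1 of 3 measured genes passed (33.3%, against 22.3% of all probes). MAT1A, which makes S-adenosylmethionine in adult liver, had 5.02, 5.38, 4.53 and 5.79 with INTG, 5.21, 5.49, 4.84 and 6.31 with NC1, and 5.42, 5.52, 4.83 and 6.05 with NC2. INTG was below both controls in each experiment, while the ranges overlapped across passages. The fall was -0.28 ± 0.08 (SE, limma, adjusted p = 0.0218) at a level where 3 INTG, 4 NC1 and 4 NC2 arrays of 8 detected it. It was past the threshold against NC1 (adjusted p = 0.0455) and not against NC2 (adjusted p = 0.0513). Without experiment 1, 3 or 4 its adjusted p was 0.0761, 0.0723 and 0.0788 (limma). BHMT differed by -0.20 (-0.43 to 0.03) and CBS by 0.03 (-0.11 to 0.17).

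Among the remaining amino acid enzymes 2 of 4 measured genes passed (50%, against 22.3% of all probes). AGXT, which detoxifies glyoxylate, had 5.68, 5.50, 4.79 and 8.62 with INTG, 5.90, 6.00, 5.98 and 8.69 with NC1, and 6.01, 5.79, 5.96 and 8.69 with NC2. Its 4 differences were -0.27, -0.39, -1.18 and -0.07, the smallest of them in the passage where the gene was highest. It was detected on 5 of 8 INTG arrays, against 8 of 8 for each control, and neither INTG well of experiment 3 detected it, so the -1.18 there is taken from a signal near background. The fall was -0.48 ± 0.14 (SE, limma, adjusted p = 0.0312), past the threshold against neither control singly (adjusted p = 0.0565 with NC1 and 0.0764 with NC2). Without experiment 3 it was -0.25 (limma, adjusted p = 0.0859), and without experiment 1 or 2 its adjusted p was 0.0662 and 0.0989.

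GLDC had 10.94, 10.98, 10.56 and 10.68 with INTG, 11.14, 11.07, 10.89 and 10.93 with NC1, and 11.28, 11.27, 10.81 and 11.03 with NC2. The difference was small and even, from -0.19 to -0.29 in the 4 experiments, and the fall was -0.26 ± 0.06 (SE, limma, adjusted p = 0.0128). It was past the threshold against NC2 (adjusted p = 0.0166) and not against NC1 (adjusted p = 0.059), and without experiment 1 or 4 its adjusted p was 0.0716 and 0.0715 (limma). HAL differed by 0.01 with its brightest probe, with experiments from -0.57 to 0.38, and its second probe rose by 0.26 (limma, adjusted p = 0.038). AASS, which starts lysine breakdown, differed by -0.01 (-0.26 to 0.24).

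**Figure D4:**
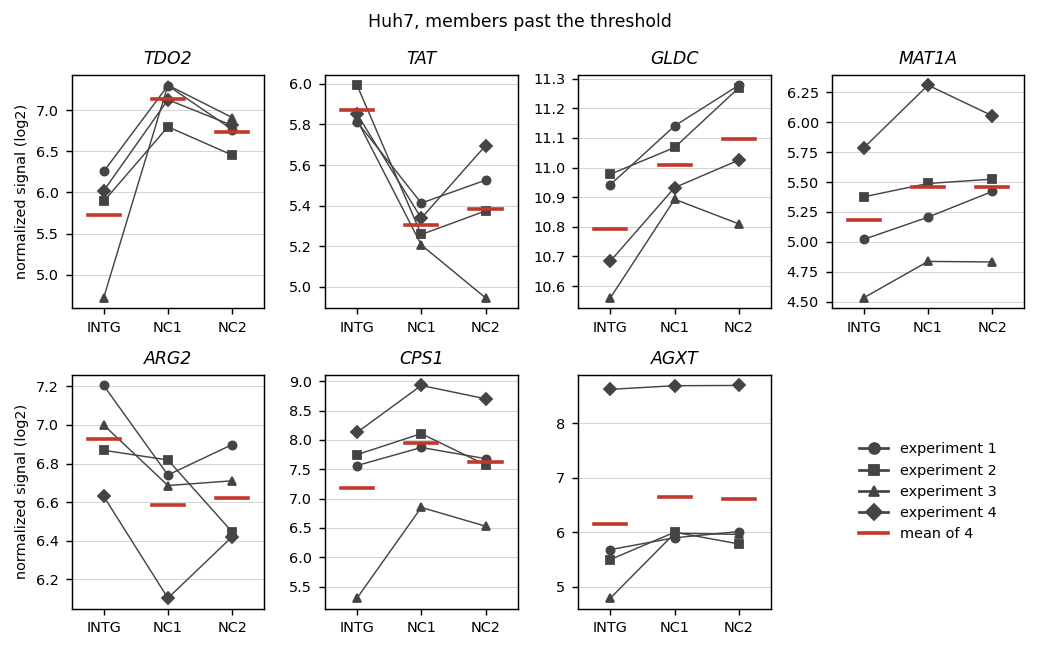
Normalized signal (log2) of the 7 genes past the threshold in Huh7, with INTG, NC1 and NC2 from left to right. Lines join the 3 siRNAs of 1 experiment (means of 2 wells), red bars are means of 4 experiments, and vertical axes differ between panels. INTG lies wholly below the controls for TDO2 and wholly above them for TAT, and in CPS1, AGXT and MAT1A the 4 passages lie further apart than the siRNAs.

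The 2 control siRNAs gave no call between them: NC2 against NC1 passed for 0 of 24 genes in Huh7 (limma; 2 at an unadjusted p under 0.05, 0.476% of probes called) and 0 of 11 in THP1 (limma; 0 at an unadjusted p under 0.05, 0% of probes called). The widest Huh7 differences were in TDO2, at -0.40, and ASS1, at -0.37 (limma, adjusted p = 0.652 and 0.163). ASS1 passed when wells were fitted as separate arrays, without background correction and with array weights. The INTG fall of TDO2 was -1.41 against NC1 and -1.01 against NC2, so it was below both controls.

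In THP1, INTG gave 0 calls among the 11 measured genes (limma; 1 at an unadjusted p under 0.05; 0.0444% of 13524 probes called). GLDC had 7.20, 6.92, 6.76 and 6.14 with INTG, 7.45, 7.01, 6.84 and 7.23 with NC1, and 7.45, 7.22, 6.89 and 7.40 with NC2. INTG was below both controls in each experiment (8.84% of probes had INTG on 1 side in all 4), by 0.11 to 0.25 in experiments 1 to 3 and by 1.18 in experiment 4, whose INTG arrays had 0.462 of the controls' brightness. The difference was -0.43 ± 0.16 (SE, limma, adjusted p = 0.393), and -0.18 without the dim arrays (limma, adjusted p = 0.318).

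Experiment 4 set other THP1 values as well. ASL differed by -0.88 there and by -0.08 to -0.20 in the other experiments, and its mean difference was -0.32 (-0.13 without the dim arrays). SLC25A15 differed by 0.82 there with its brightest probe, at 9.76 with INTG against 9.0 with NC1 and 8.88 with NC2. Its second probe went the other way, at 5.57 with INTG against 6.98 with NC1 and 7.0 with NC2. The probes of this gene thus disagreed in sign on the dim arrays. CPS1, near background in THP1, differed by 0.09 (-0.12 to 0.29). The other 7 genes differed by -0.09 to 0.11.

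**Figure D5:**
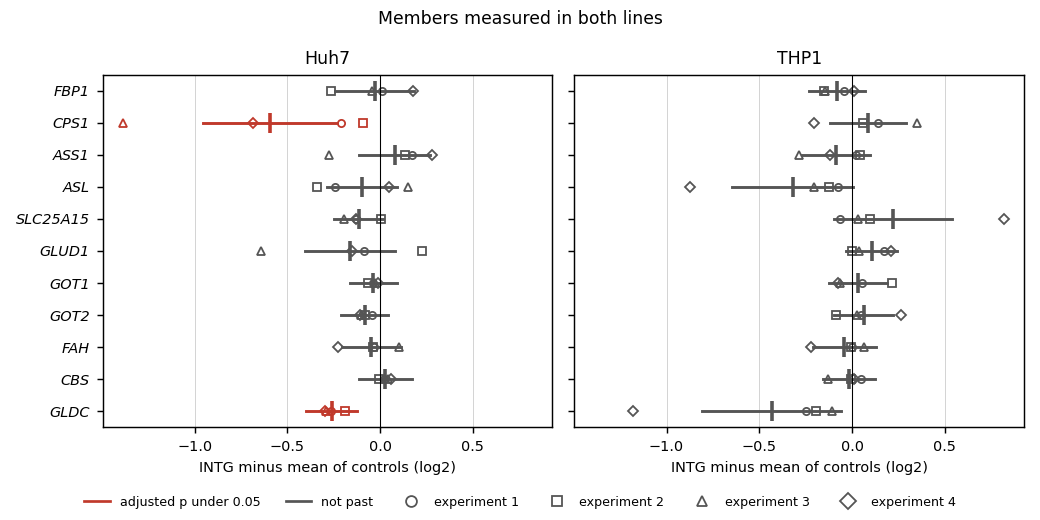
Difference of INTG from the mean of both controls (log2) for the 11 genes measured in both lines, Huh7 left and THP1 right, with fitted differences as ticks, 95% confidence intervals as lines and the 4 experiments as symbols. CPS1 and GLDC are past the threshold in Huh7 (red), none is in THP1, and the diamonds of experiment 4 stand apart for ASL, SLC25A15 and GLDC in THP1.

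The difference of the INTG effect between the lines was itself tested for the 11 genes and passed for none (limma; 2 at an unadjusted p under 0.05; 2.60% of 11542 probes called). CPS1 came closest, with an effect lower by -0.68 ± 0.21 in Huh7 than in THP1 (SE, limma, adjusted p = 0.111). SLC25A15 followed at -0.33 (limma, adjusted p = 0.25). GLDC, which passed in Huh7 alone, had a difference between lines of 0.17 (limma, adjusted p = 0.602). TDO2 and TAT were not measured in THP1, so their effects could not be set against that line.

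Other genes of the same routes were described from 4 lists. The lists were chosen with earlier results of these data known, so their shares are descriptions. Calls of single list genes were not checked with array brightness as a covariate or with experiments left out. Of 8 measured genes of gluconeogenesis and glucose handling, 1 rose and 1 fell in Huh7 (25%, against 22.3% of all probes). Lactate dehydrogenase A (LDHA) rose by 0.24 ± 0.07 and PFKFB3, which makes the activator of phosphofructokinase, fell by 0.36 ± 0.06 (SE, limma, adjusted p = 0.0267 and 0.00276). PCK2, the mitochondrial PEP carboxykinase, which Huh7 and THP1 expressed on all 24 arrays each, did not pass, with 9.80 ± 0.39 with INTG and 9.80 ± 0.38 with controls in Huh7 (SD, n = 4 each). Of 9 measured genes of ammonia, proline and glutamine metabolism, 1 rose and 2 fell (33.3%, against 22.3% of all probes). The aspartate-glutamate carrier SLC25A13 rose by 0.30 ± 0.08, while CA5A, the mitochondrial carbonic anhydrase that supplies bicarbonate to CPS1, fell by 0.61 ± 0.11, and ornithine aminotransferase (OAT) fell by 0.33 ± 0.07 (SE, limma, adjusted p = 0.0194, 0.00273 and 0.00694).

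Of 40 measured genes of other amino acid breakdown, 6 rose and 4 fell in Huh7 (25%, against 22.3% of all probes). Kynureninase (KYNU), downstream of TDO2 in tryptophan breakdown, rose to 6.76 ± 0.25 with INTG, against 6.23 ± 0.18 with controls (SD, n = 4 each; difference 0.53, limma, adjusted p = 0.000369). BCAT1 and BCKDHB, an aminotransferase and a dehydrogenase subunit for branched-chain amino acids, rose by 0.51 and 0.36, and MAT2B, the regulatory subunit of the methionine adenosyltransferase found outside adult liver, by 0.35. Cysteine dioxygenase (CDO1) fell to 6.4 ± 0.15 with INTG, against 7.05 ± 0.16 with controls (SD, n = 4 each; limma, adjusted p = 0.000164). ALDH6A1 and GCDH, dehydrogenases of valine and of lysine and tryptophan breakdown, fell by 0.36 and 0.27, and AGXT2, a mitochondrial aminotransferase for glyoxylate, by 0.35.

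Of 12 measured regulators of these genes, 2 rose and 4 fell in Huh7 (50%, against 22.3% of all probes). As the list was chosen with earlier results known, this share is a description. CEBPA, a liver-enriched transcription factor, had 12.07 ± 0.41 with INTG and 12.69 ± 0.26 with controls (SD, n = 4 each), a fall of 0.62 (limma, adjusted p = 0.000193). The hepatic factors ONECUT1 and FOXA3 fell by 0.47 and 0.36, and FOXO3 by 0.24. CREB1, which mediates the response to glucagon through cyclic AMP, rose by 0.31, and IRS2, an adaptor of the insulin receptor, by 0.43. The glucocorticoid receptor NR3C1, CEBPB, FOXA1, FOXA2, FOXO1 and KLF15 were measured and did not pass. The hepatocyte markers gave 0 calls of 6 in Huh7 (limma; 2 at an unadjusted p under 0.05), while CD14 fell by 0.76 and LYZ rose by 0.55. In THP1 0 of 7, 6, 33 and 8 measured genes of these 4 lists passed, against 0.0444% of all probes (limma). At an unadjusted p under 0.05 were 2, 1, 3 and 0 of them (limma, lists in the order given). The difference between lines passed for 0 of 7, 1 of 5, 2 of 33 and 1 of 7 list genes measured in both lines. Of all probes 2.60% passed. The effect was lower in Huh7 for OAT (-0.52) and CEBPA (-0.51), and higher for KYNU (0.56) and MAT2B (0.38) (limma, adjusted p = 0.00896, 0.0141, 0.00445 and 0.0302).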

How the data were processed

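The members and the other gene lists were chosen with earlier results of these data known. The file headers name the main table's columns as average bead signal and detection p-value. How the deposited detection p-value was made is not given in the sources used here, and neqc read it as the rank of a signal among the array's negative controls. The deposited intensities showed no background subtraction or normalization. A table of the authors' processed values is also an intensity on a linear scale and runs in the scanner's direction (rank correlation 0.999976 or more on each array), while its centring is not given in the sources used here. Its column medians were 1.09 to 1.61 in Huh7 and -4.25 to -3.81 in THP1. Per the submitters' processing notes the tools were lumi and limma, both without a version.

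From the deposited intensities, log2 values were computed with neqc in limma 3.58.1 (R 4.3.3; normexp by detection p-values, offset 16, quantile normalization over 48 arrays). Of 48803 probes, 8 with blank values were left out. The platform annotation gave 28092 probes 1 symbol, 13 several and 20690 none. Wells were averaged (n = 4 experiments), and each line was fitted with siRNA and experiment as terms (lmFit, eBayes, 6 residual degrees of freedom). Benjamini-Hochberg adjustment ran over all probes measured in the line. A joint fit gave the difference between lines, and a fit of control wells the line levels.

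Per the series' design text an experiment is 1 culture passage with all 3 siRNAs, which makes it the block. Deviations from group means correlated at 0.458 to 0.918 within experiments. The 2 wells may be technical repeats. The block takes out the level of each passage, so p-values for siRNAs rest on how the siRNA differences vary between passages. Those for line levels rest on the spread of levels between passages. Genes past the threshold, and PCK1, CPS1 and ARG1, are given by experiment, the others by ranges and counts, and up to 4 genes per direction of each other list are named. The description of control levels by passage, and its limit of 1 log2 unit, were chosen after the values were seen. The fits were tested on simulated data.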

Additional observations from a re-analysis of the deposited data

Results flagged for a closer look

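Within groups of 4 experiments, 3 of 35 sets of INTG differences had 1 experiment further from the others than Dixon's 95% limit. For independent sets chance alone gives about 1 in 20. These sets are genes read on the same arrays and are not independent, so the count is no test. TDO2 in Huh7 differed by -2.39 in experiment 3, against -0.95 to -0.73 in the other 3. ASL in THP1 differed by -0.88 in experiment 4, against -0.20 to -0.08. GLDC in THP1 differed by -1.18 in experiment 4, against -0.25 to -0.11. The brightness ratio of INTG to control arrays was 0.738 in Huh7 experiment 3 and 0.462 in THP1 experiment 4. With brightness as a covariate the mean differences were -0.92 for TDO2 in Huh7, and -0.16 for ASL and -0.20 for GLDC in THP1, against -1.21, -0.32 and -0.43 without it.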

How the results depend on the processing

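Of the 24 genes measured in Huh7, 7 passed with INTG. Without the replicate block 1 passed (TDO2), 3 with slides in place of experiments as the block, 2 of 12 with the detection limit set to all 24 arrays, 0 with array brightness as a covariate, and in the discovery and validation phases alone 2 each. Leaving out 1 experiment gave 3 to 6: 3 without experiment 1, 3 or 4. Wells as separate arrays gave 8, the authors' values and normalization within each line 7, no background correction and array weights 6, no detection filter 5, and the probe with the smallest p 9. Against both controls singly 2 passed, and 0 without the block, with the slide block, with brightness or in the validation phase, 6 with wells, 1 without the detection filter and 1 in the discovery phase, and 0 to 2 with 1 experiment left out (0 without experiment 2, 1 without experiment 3 and 1 without experiment 4). TDO2 kept its call in 15 of 16 alternatives, TAT in 13 of 16, GLDC in 11 of 17, CPS1 in 9 of 16, ARG2 in 9 of 17, MAT1A in 7 of 16 and AGXT in 6 of 16, and 0 of these changed sign. NC2 against NC1 in Huh7 gave 1 call with wells, without background correction and with array weights. The difference between lines gave 2 calls with wells (CPS1 and SLC25A15) and 1 with array weights (CPS1). Over the 11 genes measured in both lines, the level difference passed for 8 to 11 in the alternatives run, against 10 in the fit described. Without background correction the differences shrank to -0.59 for TDO2, -0.35 for CPS1, -0.19 for AGXT and 0.20 for TAT. INTG in THP1 gave 0 calls in every alternative run. By construction the phase and leave-one-out fits had fewer samples, and the detection fit fewer genes. Why calls changed was not tested for any alternative. Signals near background, such as those of TAT and MAT1A, limit the precision.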
